A study of Mus musculus with 10 samples.

Results

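Transcripts of 9 genes, 8 for mechanically gated or acid-sensing channels and 1 for a channel modulator, were examined in developing dorsal root ganglia (DRG). The genes are *Piezo1*, *Piezo2*, *Tmem63a*, *Tmem63b*, *Tmem120a*, *Asic1*, *Asic2*, *Asic3* and *Stoml3*. They were chosen by symbol, and all 9 were found among the 55414 Ensembl genes listed for each library. Whole DRG were sequenced in bulk at E18.5, from 5 embryos labelled control and 5 labelled *WD1* cKO, to ask what the loss of *Dach1*, a transcriptional regulator, changes in somatosensory neurons. Embryos of both groups carried *Dach1* flox/flox alleles, in which exon 2 is floxed, on a mixed C57Bl/6J and CD1 background. *WD1* cKO embryos were Wnt1Cre/+ and littermate controls were Wnt1+/+. *Wnt1* sequences drive Cre in the neural crest, which gives rise to both the neurons and the glia of the ganglion, whereas blood and vessel cells of the ganglion have other origins.

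Mechanosensory neurons turn force on their endings in skin and muscle into current through channels that open when the membrane is stretched or deformed. Piezo channels are trimers that open under membrane tension. Piezo2 carries most of the rapidly adapting current of touch receptors and proprioceptors, and Piezo1 is best known from vessels and blood cells. TMEM63 proteins are stretch-activated or osmotically activated channels, TMEM120A has been described both as a force-sensing channel and as a lipid-handling enzyme, and ASIC channels are proton-gated sodium channels of the DEG/ENaC family that occur in endings of touch and pain neurons. STOML3 is a stomatin-domain membrane protein that tunes the sensitivity of mechanically gated currents in touch receptors.

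The 250 bases before the RefSeq start of transcription are shown for 4 genes, a pair with high levels (*Tmem63b* and *Asic3*) and a pair with low levels (*Piezo1* and *Stoml3*), with each CG in capitals. CG-rich starts are typical of widely used genes and CG-poor starts of genes with restricted use. A start was matched for 8 of the 9 genes, and all coordinates are of GRCm38.p6 as RefSeq gives them. *Tmem63b* lies on the minus strand at chr17:45686219-45686468, *Asic3* on the plus strand at chr5:24413201-24413450, *Piezo1* on the minus strand at chr8:122551330-122551579 and *Stoml3* on the plus strand at chr3:53488457-53488706.

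Tmem63b: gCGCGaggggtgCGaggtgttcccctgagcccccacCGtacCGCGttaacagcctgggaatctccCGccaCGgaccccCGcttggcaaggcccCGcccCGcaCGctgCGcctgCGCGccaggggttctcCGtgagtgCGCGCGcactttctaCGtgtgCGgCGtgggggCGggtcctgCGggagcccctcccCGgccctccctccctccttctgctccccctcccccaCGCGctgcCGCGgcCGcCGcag
Asic3: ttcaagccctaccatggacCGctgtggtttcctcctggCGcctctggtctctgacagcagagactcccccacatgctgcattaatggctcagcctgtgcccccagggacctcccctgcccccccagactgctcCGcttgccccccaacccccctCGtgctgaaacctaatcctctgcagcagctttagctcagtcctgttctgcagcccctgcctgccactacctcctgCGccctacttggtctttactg
Piezo1: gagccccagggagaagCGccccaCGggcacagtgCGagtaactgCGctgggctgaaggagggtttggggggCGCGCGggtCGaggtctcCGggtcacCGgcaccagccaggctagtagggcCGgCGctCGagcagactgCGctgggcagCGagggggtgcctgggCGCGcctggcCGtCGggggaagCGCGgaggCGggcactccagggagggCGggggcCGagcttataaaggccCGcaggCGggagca
Stoml3: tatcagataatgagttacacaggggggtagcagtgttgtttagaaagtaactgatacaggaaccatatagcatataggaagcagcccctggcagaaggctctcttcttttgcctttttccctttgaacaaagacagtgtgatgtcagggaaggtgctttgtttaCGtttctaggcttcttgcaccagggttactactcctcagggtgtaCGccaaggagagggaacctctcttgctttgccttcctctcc

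The *Tmem63b* window held 31 CG and the *Piezo1* window 26, counts that 5.19% and 9.59% of the 32851 mouse promoters of the same length reached. The *Asic3* window held 5 CG, which 55.6% of promoters reached, and the *Stoml3* window 2, which 81.2% reached. The median promoter held 6 CG, and 92.1% of promoters held at least 1. Of the other windows, *Tmem120a* held 27, *Tmem63a* 23 and *Asic1* 5, and the 2 starts of *Asic2* held 14 and 9. The number of CG did not follow the level. *Tmem63b* and *Asic3* had similar levels per length with 31 and 5 CG, and *Piezo1*, with 26, was far below both. These letters describe the windows only, and which start is used in the ganglion was not tested.

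The values are read counts per gene, and a level is given here in CPM, the counts divided by TMM-scaled library size. The median depth was 22544236 counts in control and 26377947 in *WD1* cKO libraries, with extremes of 19757596 and 34796562. *Dach1* checked the group labels. It was at 35.0, 38.4, 41.6, 37.0 and 37.3 CPM in control replicates 1 to 5 and at 19.1, 20.7, 19.5, 20.2 and 20.4 CPM in *WD1* cKO replicates 1 to 5, so the groups did not overlap. The log2 fold change of *Dach1* was -0.92 (standard error 0.050, adjusted p = 5.48e-06, edgeR's quasi-likelihood test). An exact permutation test of its mean log2 CPM gave p = 0.00794 (two-sided), the smallest value that 5 against 5 libraries allow. These levels follow the sample titles, by which the libraries were grouped, whereas the labels' genotype field has the 2 genotypes the other way round. The tissue was checked by marker genes. All 9 pan-neuronal genes passed the count filter and summed to between 8590 and 9342 CPM, and all 8 glial genes passed and summed to between 1019 and 1308 CPM. Genes of endothelium (287 to 348 CPM), blood (156 to 2500.3 CPM), connective tissue (4186 to 5827 CPM) and muscle (29.6 to 201 CPM) were present too, and no summed marker list separated the groups. The 5 spinal cord genes, none of which passed the count filter, summed to 15.2 CPM in control replicate 3. In every other library they summed to 1.32 CPM or less. Of the 8 A-LTMR genes, which mark light-touch neurons, 4 had an unadjusted p-value under 0.05, beside 4.50% of all genes tested, and they did not share a direction. *Calb2*, the gene of calretinin, and *Ntrk2*, the gene of TrkB, had log2 fold changes of -2.06 and -0.18, and the transcription factor genes *Shox2* and *Mafa* of 0.30 and 0.34. The authors had reported *Calb2* and *Shox2* as changed in these same libraries. The list was chosen with earlier results known, so its count of low p-values is no independent result. The median over the 8 genes was 0.033, and 1 of them, *Calb2*, had an adjusted p-value under 0.05 (adjusted p = 4.83e-05, edgeR), beside 0.0400% of genes. In bulk tissue, fewer cells of a type and less RNA per cell cannot be told apart. By immunostaining of *WD1* cKO DRG at E18.5, the authors found no difference in counts of general neuron subtype markers. They found a lower percentage of calretinin-positive cells among TrkB-positive neurons.

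No difference between control and *WD1* cKO DRG was detected for any of the 8 channel genes that could be tested. *Stoml3*, the modulator, was too sparsely counted to be tested. Of the 8, 3 had a fitted value above control, beside 50.1% of all genes tested, and 5 had one below, and the estimates ran from -0.085 for *Asic3* to 0.052 for *Tmem63a* and *Tmem120a* on the log2 scale. None had an adjusted p-value under 0.05, beside 0.0400% of the 17490 genes tested. None had an unadjusted p-value under 0.05, beside 4.50% of genes (2.12% higher and 2.38% lower in *WD1* cKO embryos), the lowest being 0.255 for *Tmem63b* (adjusted p = 1.00, edgeR's quasi-likelihood test). In none did the groups fail to overlap, beside 1.06% of genes. Their median absolute log2 fold change was 0.050, beside 0.053 for all genes tested. A p-value that misses the threshold does not show equality, so the 95% interval of each difference is given. Taken over the 8 genes, these intervals reached from -0.28 to 0.34. They hold for the whole ganglion. The authors found Dach1 at this stage mainly in TrkB-expressing touch neurons, which are only a part of its neurons. A change confined to those cells would be diluted in whole DRG, and the intervals do not bound it.

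**Figure D1:**
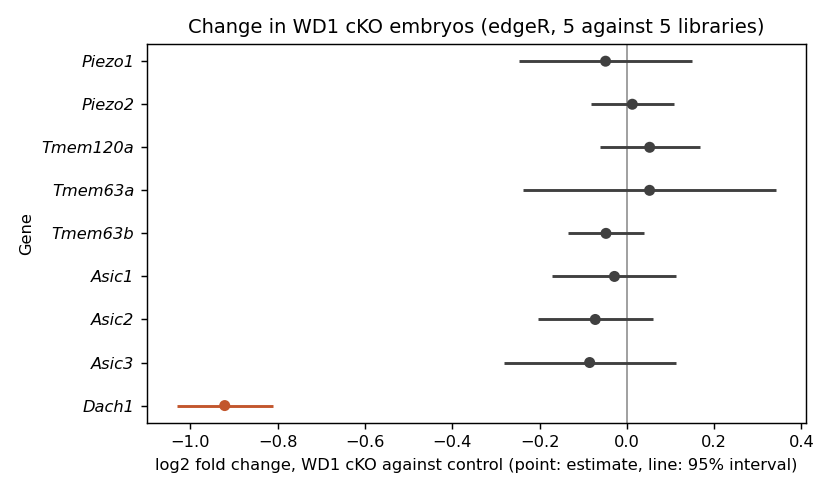
Fitted log2 fold change of 8 channel genes and *Dach1* between 5 *WD1* cKO and 5 control libraries (x axis), with points for estimates and lines for 95% intervals. All 8 channel intervals include 0 and stay between -0.28 and 0.34, whereas the estimate of *Dach1* is -0.92.

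*Piezo2* (ENSMUSG00000041482, chromosome 18), the main channel of touch, was the most abundant of these transcripts. Control replicates 1 to 5 had 1509, 1423, 1356, 1493 and 1516 CPM. *WD1* cKO replicates 1 to 5 had 1493, 1511, 1376, 1536 and 1447 CPM. Both groups spanned nearly the same range, and replicate 3 was the lowest library of each. The means were 1459.6 ± 68.7 CPM (SD, n = 5) in control and 1472 ± 63.1 CPM (SD, n = 5) in *WD1* cKO embryos. The log2 fold change was 0.013 with a 95% interval from -0.083 to 0.11 (adjusted p = 1.00, edgeR), so that the bounds correspond to ratios of 0.944 and 1.08.

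*Piezo1* (ENSMUSG00000014444, chromosome 8) had 28.9, 28.8, 30.5, 24.5 and 22.7 CPM in control replicates 1 to 5. In *WD1* cKO replicates 1 to 5 it had 24.8, 28.3, 28.5, 26.9 and 22.3 CPM. The lowest library of both groups was replicate 5 and the highest replicate 3, and the groups covered each other. The log2 fold change was -0.049 with an interval from -0.25 to 0.15 (adjusted p = 1.00, edgeR). In the GRCm38 annotation, 24.6% of the exon length of *Piezo1* is shared with *Ctu2*, a gene for a tRNA-modifying enzyme on the opposite strand. *Ctu2* had 5830 counts over all libraries and *Piezo1* 6581. The strand setting of the counting is not given in the sources used here, so how reads of the shared stretch were assigned is uncertain.

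*Tmem63b* (ENSMUSG00000036026, chromosome 17), which encodes an osmotically and mechanically activated cation channel, was counted at 204, 196, 203, 219 and 207 CPM in control replicates 1 to 5. *WD1* cKO replicates 1 to 5 had 200.1, 204, 187, 210.3 and 196 CPM. Replicate 4 was the highest library in both groups. The log2 fold change of -0.048 had an interval from -0.13 to 0.039 (adjusted p = 1.00, edgeR), the narrowest of the 8. Antisense *Gm16172* and the mitochondrial ribosomal gene *Mrpl14*, both on the opposite strand, share 5.65% and 2.08% of its exon length.

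*Tmem63a* (ENSMUSG00000026519, chromosome 1), a stretch-activated channel also known from myelinating glia, varied more. Control replicates 1 to 5 had 16.1, 15.7, 18.2, 22.5 and 23.5 CPM. *WD1* cKO replicates 1 to 5 had 15.9, 19.2, 18.4, 23.6 and 22.6 CPM. In both groups, replicates 4 and 5 were above the other 3 libraries. The spread within groups gave the widest interval, from -0.24 to 0.34 around a log2 fold change of 0.052 (adjusted p = 1.00, edgeR). *Tmem120a* (ENSMUSG00000039886, chromosome 5) stayed within 26.9 to 32.4 CPM in control and 29.3 to 32.3 CPM in *WD1* cKO libraries. Its log2 fold change was 0.052 with an interval from -0.062 to 0.17 (adjusted p = 1.00, edgeR).

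The Asic subunits assemble in threes, in mixed or uniform channels, and *Asic3* is the one most closely tied to sensory neurons. *Asic3* (ENSMUSG00000038276, chromosome 5) had 88.9, 97.7, 78.9, 111 and 98.8 CPM in control replicates 1 to 5. In *WD1* cKO replicates 1 to 5 it had 85.3, 85.6, 78.9, 95.4 and 104 CPM. Replicate 3 was the lowest library in both groups and the groups overlapped widely. The means were 95.1 ± 12.1 CPM (SD, n = 5) in control and 89.8 ± 9.75 CPM (SD, n = 5) in *WD1* cKO embryos, a log2 fold change of -0.085 with an interval from -0.28 to 0.11 (adjusted p = 1.00, edgeR).

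*Asic1* (ENSMUSG00000023017, chromosome 15), the main proton sensor among the subunits of central neurons, had 134, 148, 119, 125 and 128 CPM in control replicates 1 to 5. *WD1* cKO replicates 1 to 5 had 142, 134, 127, 113 and 126 CPM. The ranges of the groups overlapped for most of their length, and the log2 fold change was -0.028 with an interval from -0.17 to 0.11 (adjusted p = 1.00, edgeR). *Asic2* (ENSMUSG00000020704, chromosome 11), whose product modifies channels formed with the other subunits, had 98.0, 91.0, 87.2, 101 and 106 CPM in control replicates 1 to 5. *WD1* cKO replicates 1 to 5 had 84.3, 93.8, 85.4, 98.4 and 97.8 CPM. The control mean of 96.6 ± 7.58 CPM (SD, n = 5) exceeded the *WD1* cKO mean of 91.9 ± 6.69 CPM (SD, n = 5) by less than either SD. The log2 fold change was -0.072 with an interval from -0.20 to 0.060 (adjusted p = 1.00, edgeR).

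*Stoml3* (ENSMUSG00000027744, chromosome 3) was barely detected. Control replicates 1 to 5 held 7, 7, 7, 10 and 3 of its reads, and *WD1* cKO replicates 1 to 5 held 2, 9, 15, 6 and 8, a sum of 74. These counts amount to 0.296 ± 0.0940 CPM (SD, n = 5) in control and 0.291 ± 0.151 CPM (SD, n = 5) in *WD1* cKO embryos. Only 2 of 10 libraries reached the 10 counts of the filter. Without the filter its fitted log2 fold change was 0.0039 with an interval from -0.83 to 0.84 (adjusted p = 0.998, edgeR). This interval is wide, so at this depth the counts bound a change of *Stoml3* only loosely.

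Levels of different genes were compared per kilobase of exon, the union of all annotated exons of a gene. On this scale *Piezo2* stood first, with 85.0 ± 4.00 CPM per kilobase in control embryos (SD, n = 5, as for all levels here). *Tmem63b* with 40.4 ± 1.66 and *Asic3* with 39.3 ± 4.98 followed, then *Asic1* with 22.8 ± 1.91, *Asic2* with 22.7 ± 1.78 and *Tmem120a* with 17.2 ± 1.20 CPM per kilobase. *Tmem63a* with 4.28 ± 0.806, *Piezo1* with 2.73 ± 0.331 and *Stoml3* with 0.137 ± 0.0437 CPM per kilobase were lowest. The *WD1* cKO means stood in the same order, from 85.8 ± 3.68 for *Piezo2* to 0.136 ± 0.0702 CPM per kilobase for *Stoml3*.

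**Figure D2:**
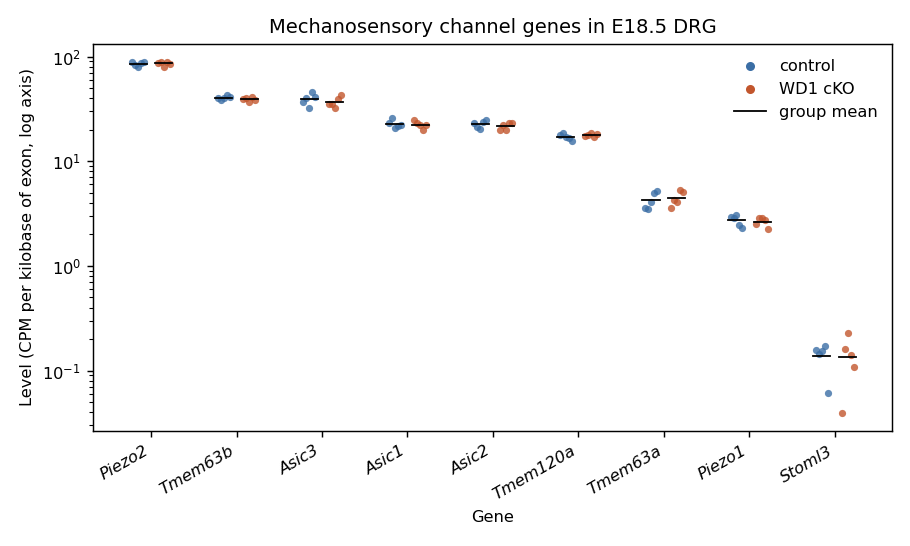
Level in CPM per kilobase of exon (y axis, logarithmic) of the 9 genes in each control and *WD1* cKO library (points) with group means (lines). Control means fall from 85.0 for *Piezo2* to 0.137 for *Stoml3*, and the groups overlap for every gene.

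Pairs of neighbours in this order were set side by side in each library. *Tmem63b* was above *Asic3* in 6 of 10 libraries and *Asic1* above *Asic2* in 6 of 10, so neither pair stood apart. In the other 6 pairs, the upper gene was above in 10 of 10 libraries and its range did not meet that of the lower gene. Dividing by the longest annotated transcript kept the order of all 9 genes, but *Tmem63b* was then above *Asic3* in 10 of 10 libraries and *Asic1* above *Asic2* in 9 of 10. On that scale *Asic3* was still above *Asic1* in 10 of 10 libraries, but the ranges of the 2 genes met. Among the 17449 tested genes with a known length, *Piezo2* was above 98.1% of genes, *Tmem63b* above 94.2% and *Asic3* above 94.0%. *Tmem63a* was above 48.9% and *Piezo1* above 39.2%, near the middle of the genes expressed in the ganglion.

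*Piezo2* took between 35.4% and 37.3% of the summed level per length of the 9 genes in control libraries and between 35.8% and 37.9% in *WD1* cKO libraries. Its level per length exceeded that of *Piezo1* 31.7 ± 5.19 times (SD, n = 5) in control and 32.8 ± 3.68 times (SD, n = 5) in *WD1* cKO embryos. The ratio ranged from 25.8 to 38.6 in control libraries, which covered the *WD1* cKO range of 27.9 to 37.6. *Tmem63b* exceeded *Tmem63a* 9.67 ± 1.49 times (SD, n = 5) in control and 8.96 ± 1.39 times (SD, n = 5) in *WD1* cKO embryos. The shares of the Asic subunits overlapped between the groups too. *Asic3* made up 45.7% ± 2.59 (SD, n = 5) of the summed *Asic1* to *Asic4* level per length in control and 45.2% ± 2.54 (SD, n = 5) in *WD1* cKO embryos. *Asic1* made up 26.6% ± 2.23 and 27.4% ± 2.96, and *Asic2* 26.5% ± 1.51 and 26.4% ± 1.21 (SD, n = 5). *Asic4*, a subunit that does not form proton-gated channels by itself, made up 1.19% ± 0.466 and 1.05% ± 0.204 (SD, n = 5). These shares and ratios depend on the union of exons as length, which their ranges and SDs leave out. Per kilobase of the longest transcript, control means were 136.1 CPM for *Piezo2* and 3.29 for *Piezo1*, and 43.0, 31.8 and 28.1 for *Asic3*, *Asic1* and *Asic2*. *Piezo1* also shares exon sequence with *Ctu2*, as given above.

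**Figure D3:**
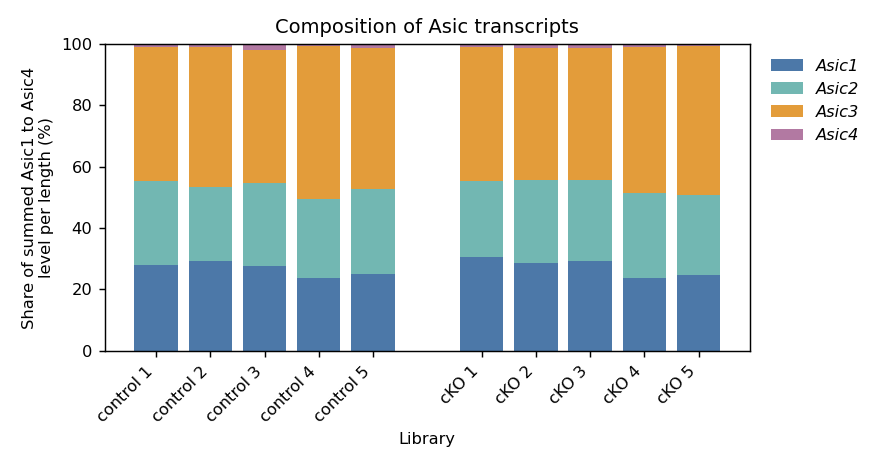
Share of *Asic1*, *Asic2*, *Asic3* and *Asic4* (stacked bars, % of their summed level per length) in each library. *Asic3* holds between 43.1% and 49.9% in every library of both groups, and *Asic4* at most 1.90%.

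The libraries differed along another line than genotype. In both groups, replicates 4 and 5 were above replicates 1 to 3 without overlap for *Tmem63a*, *Asic2* and *Asic3*, 3 of the 8 members tested, beside 8.24% of all genes tested. No member was below in both groups, beside 7.15% of all genes. *Tmem63a* lay between 15.7 and 18.2 CPM in control replicates 1 to 3 and at 22.5 and 23.5 CPM in replicates 4 and 5. *Piezo1* and *Tmem120a* were lower in replicates 4 and 5 of the control group only, and *Asic1* of the *WD1* cKO group only. *Tmem63b* was higher in replicates 4 and 5 of the control group only. The summed glial genes were higher and the endothelial and blood genes lower in replicates 4 and 5 of both groups. Blood genes, for instance, summed to between 1082 and 2500.3 CPM in control replicates 1 to 3 and to 156 and 184 CPM in replicates 4 and 5. This split was noticed after the values were seen, the labels name no batch behind it, and its part in the levels was not tested. Both groups hold 3 and 2 libraries of either kind. A model with the split as a term left 0 members with a p-value under 0.05, beside 1282 of the 17490 genes tested (edgeR).

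**Figure D4:**
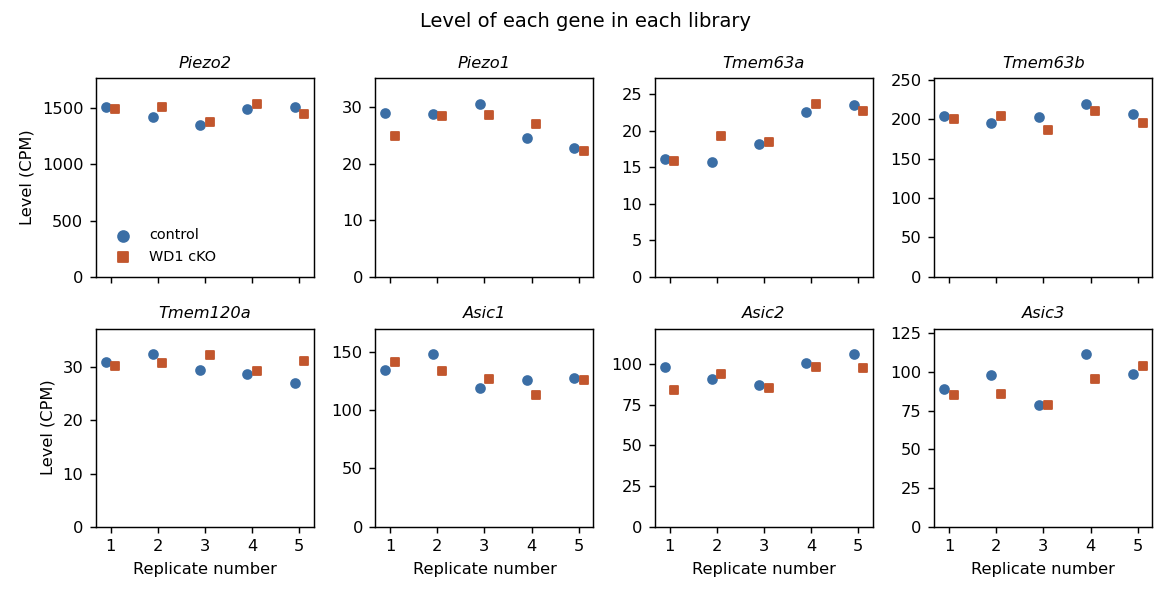
CPM (y axes, from 0) of the 8 tested channel genes by replicate number (x axes) in control and *WD1* cKO libraries. In *Tmem63a*, *Asic2* and *Asic3*, replicates 4 and 5 of both groups lie above replicates 1 to 3, and the 2 groups overlap in every panel.

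Relations between a channel gene and the summed level of a marker list were computed for 4 pairs, on log2 CPM as deviations from the group means over 10 libraries, with exact permutations within groups (two-sided) and adjustment over the 4 pairs. *Tmem63a* followed the 8 glial genes, with Pearson's r = 0.90 (p = 0.000556, adjusted p = 0.00222, exact permutation) and Spearman's rho = 0.92 (p = 0.000833, adjusted p = 0.00333, exact permutation). Without *WD1* cKO replicates 1 and 4, the libraries farthest from the median, r was 0.88 (p = 0.0153, exact permutation). Other pairs of gene and list were not computed, so whether this relation is particular to *Tmem63a* or to glial genes was not tested. The split by replicate number runs through it, since both measures were higher in replicates 4 and 5. Of all genes tested, 15.4% were apart by this split in both groups in the same direction. Among the 6 libraries with numbers 1 to 3, r was 0.92 (p = 0.0556, exact permutation, 36 orders, smallest p 0.0278) and rho 0.89 (p = 0.0833). Numbers 4 and 5 leave 4 libraries, too few for a value of their own. With deviations taken from the means of each group and set of numbers, r was 0.88 (p = 0.0417, exact permutation, 144 orders) and rho 0.72 (p = 0.132), so that the rank relation missed the threshold within sets.

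*Piezo1* followed the 8 endothelial genes, with r = 0.72 (p = 0.0241, adjusted p = 0.0482, exact permutation) and rho = 0.82 (p = 0.00903, adjusted p = 0.0181, exact permutation). Without replicate 3 of both groups, r was 0.59 (p = 0.142, exact permutation) and rho 0.64 (p = 0.0868, exact permutation), so neither passed the threshold with 8 libraries. No other 2 libraries were left out, so whether this is due to replicate 3 or to the smaller number was not tested. Among numbers 1 to 3, r was 0.70 (p = 0.0278, exact permutation, the smallest value that 36 orders allow), and within sets it was 0.55 (p = 0.0347, exact permutation). Whether the relation is particular to *Piezo1* or to endothelial genes was not tested. The exon sequence shared with *Ctu2* leaves the *Piezo1* counts uncertain here too. *Piezo2* did not pass with the 9 pan-neuronal genes (r = 0.60, p = 0.0905, adjusted p = 0.121, and rho = 0.22, p = 0.557, exact permutation). Its r was 0.86 among numbers 1 to 3 and turned to -0.50 without replicate 3 of both groups. *Asic2* did not pass with the 5 spinal cord genes (r = -0.51, p = 0.167, adjusted p = 0.167, and rho = -0.28, p = 0.418, exact permutation). Those genes were near 0 in 9 libraries and summed to 15.2 CPM in control replicate 3, and without replicate 3 of both groups r was 0.48.

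**Figure D5:**
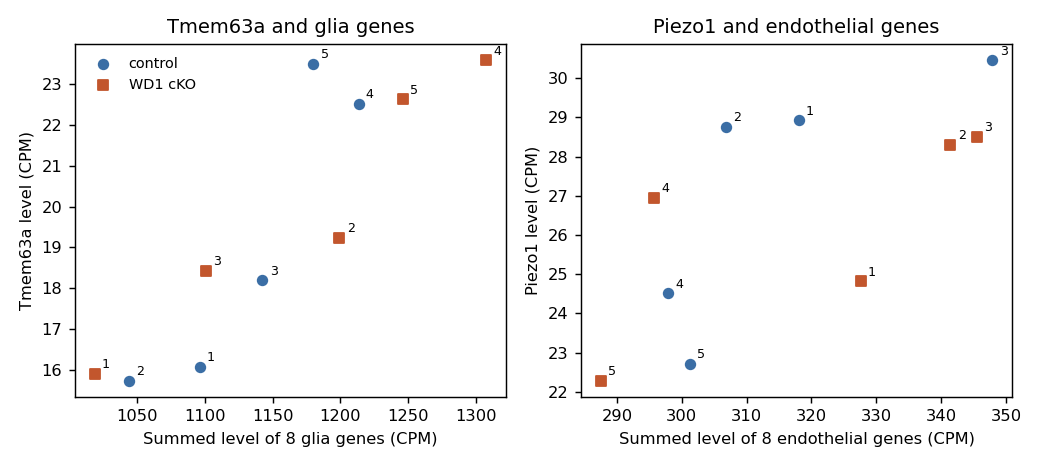
CPM of *Tmem63a* against the summed CPM of 8 glial genes and of *Piezo1* against 8 endothelial genes (1 point per library, numbered by replicate). High *Tmem63a* goes with high glial genes, with replicates 4 and 5 at the top. *Piezo1* goes with endothelial genes, with replicate 3 of both groups at the right. The r of 0.90 for *Tmem63a* and 0.72 for *Piezo1* are of log2 values as deviations from group means, not of the points drawn.

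The genes whose pattern over the 10 libraries was most like that of *Piezo2*, among 10770 genes of at least 10 CPM, were *Tm7sf2* with r = 0.94, *Htt* with 0.93 and *Samd8* with 0.93. Without replicate 3 of both groups, these values were 0.79, 0.83 and 0.74. *Tm7sf2* encodes a sterol reductase, *Htt* huntingtin and *Samd8* a sphingolipid-synthesising enzyme. For *Piezo1* they were *Kat6b*, a histone acetyltransferase, with r = 0.96, *Gatad2a*, a subunit of the NuRD complex, with 0.95, and *Efs*, an adaptor protein, with 0.95. They were picked as the highest of many, so the values describe likeness in these libraries only.

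Genes related to the 9 were read as 6 lists, 41 genes in all. Of the 36 that could be tested, 18 had a fitted value above and 18 below control, none had an adjusted p-value under 0.05, and in none were the groups apart, beside 0.0400% and 1.06% of all genes tested. The median log2 fold change was -0.00090, beside 0.00022 for all genes tested. *Trpv4*, an osmotically sensitive cation channel, was the 1 gene of the 36 with an unadjusted p-value under 0.05, beside 4.50% of all genes tested, so the count was no higher than in the background. It lay between 2.21 and 2.73 CPM in control and between 1.78 and 2.38 CPM in *WD1* cKO libraries, so the groups overlapped. The fitted difference was -0.30 on the log2 scale (SE 0.12, adjusted p = 1.00, edgeR). Without the filter on low counts and with DESeq2's Wald test, no related gene had a p-value under 0.05.

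Among DEG/ENaC relatives, 2 of 5 could be tested, *Asic4* at 0.998 ± 0.316 CPM per kilobase (SD, n = 5, control embryos here and in the rest of the paragraph) and the epithelial sodium channel subunit *Scnn1a* at 0.314 ± 0.0638. Their log2 fold changes were -0.22 and -0.15 (both adjusted p = 1.00, edgeR). All 4 stomatin relatives could be tested, and *Stoml1*, at 30.1 ± 2.50 CPM per kilobase, and the mitochondrial *Stoml2*, at 12.4 ± 0.820, were far above *Stoml3*. *Tmem63c* stood at 20.4 ± 1.49 and *Tmem120b* at 6.82 ± 0.526 CPM per kilobase, with log2 fold changes of -0.055 and -0.076. Of 11 genes of the TMC family and of partners of the hair cell transduction channel, 9 could be tested, and *Tmc1* and *Tmc2*, the pore subunits of that channel, were the 2 that could not. The most abundant of the list were *Cib2*, a calcium-binding partner of the channel, with 12.6 ± 0.250, and *Tmc6*, a family member that is no part of it, with 12.0 ± 1.09 CPM per kilobase. Of 9 partners of Piezo and ASIC proteins, all were tested, led by *Anxa6*, an annexin, with 290.1 ± 13.7, and *Atp2a2*, a calcium pump, with 62.7 ± 1.62 CPM per kilobase. Their log2 fold changes were 0.0048 and -0.0030. The 10 other stretch-gated channels, which include TRP channels and the 2-pore potassium channels *Kcnk2*, *Kcnk4* and *Kcnk10*, were all tested and led by the polycystins *Pkd1* with 13.1 ± 0.498 and *Pkd2* with 6.53 ± 0.334 CPM per kilobase. Their log2 fold changes were -0.046 and 0.079 (both adjusted p = 1.00, edgeR).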

How the data were processed

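Whole DRG from 5 embryos of each group were compared. The authors prepared stranded libraries, demultiplexed with bcl2fastq 2.20.0.422, aligned with STAR 2.7.8a to GRCm39 and counted with featureCounts 2.0.1 (submitters' processing notes), and deposited raw counts for 55414 genes. The strand setting and the treatment of multiply mapped reads are not given in the sources used here. Symbols were matched for 52081 ids and exon lengths for 52133 with GENCODE M21 (GRCm38), so GRCm39 coordinates are not given. Promoter sequences are those of RefSeq.

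The quasi-likelihood test of edgeR 4.0.16 (R 4.3.3) compared the groups with TMM scaling and no further term. It covered 17490 genes, those that reached 10 counts in 5 or more libraries, with Benjamini-Hochberg adjustment. CPM used TMM-scaled library sizes. Log2 CPM for exact tests and relations had a prior count of 1. Libraries of a group were no copies of each other, with a chi-square of 4.35 to 15.02 per degree of freedom between them. Which embryos share a litter is not given in the sources used here. Total counts limit precision most for *Stoml3*.

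The members, the gene lists and the tests were chosen with earlier results of these data known. Named were all 9 members, *Dach1*, related genes with p under 0.05 or among the 2 highest per length of their list, and the 3 genes most like *Piezo1* and *Piezo2*. *Calb2*, *Ntrk2*, *Shox2*, *Mafa*, *Ctu2*, *Gm16172*, *Mrpl14*, *Tmc1*, *Tmc2* and the potassium channels were named after their values were seen. As alternatives, DESeq2 1.42.0 and its size factors, robust dispersions, omission of the filter, a replicate block, each library left out, and the longest transcript as length were tried. Splits by replicate number were added after seeing the data.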

Additional observations from a re-analysis of the deposited data

Results flagged for a closer look

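*Stoml3* in control replicate 5 was low against its group. It stood at 0.132 CPM, from 3 counts, while the other 4 control libraries lay between 0.308 and 0.368 CPM. Of the 18 groups of 5 libraries looked at, 9 genes in each of control and *WD1* cKO embryos, this 1 passed Dixon's critical value of 0.71, where chance gives 0.9.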

How the results depend on the processing

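No member had a p-value under 0.05, adjusted or not, under any alternative run. Over all genes tested, 639 to 1496 had an unadjusted and 2 to 19 an adjusted p-value under 0.05 in those runs. *Tmem120a*, *Tmem63b*, *Asic2* and *Asic3* kept their direction throughout, while *Piezo1*, *Piezo2*, *Tmem63a* and *Asic1* changed sign in some runs. With each library left out in turn, *Piezo1* ranged from -0.11 to 0.0034, *Piezo2* from -0.013 to 0.035, *Tmem63a* from -0.012 to 0.13 and *Asic1* from -0.066 to 0.019 on the log2 scale. The signs turned for *Piezo1* without *WD1* cKO replicate 5 (0.0034), for *Piezo2* without control replicate 3 (-0.013) or *WD1* cKO replicate 4 (-0.0031), for *Tmem63a* without control replicates 1 (-0.0045) or 2 (-0.012) or *WD1* cKO replicates 4 (-0.011) or 5 (-0.0028), and for *Asic1* without control replicate 2 (0.019) or *WD1* cKO replicate 4 (0.013). With replicates 4 and 5 only, *Piezo1* was at 0.050 and *Piezo2* at -0.014, and with replicates 1 to 3 only, *Asic1* was at 0.0022. The cause was not tested.

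Related genes with a p-value under 0.05, 1 in the report, numbered 0 without the filter, 0 with DESeq2's Wald test, 3 with replicates 4 and 5 only, 2 with the split by replicate number as a term, and 0 to 2 with a library left out (0 without control replicates 1 or 5 or *WD1* cKO replicates 1, 2 or 4, and 2 without *WD1* cKO replicate 5). All genes with such a p-value numbered 787 of 17490 in the report, 1496 of 37123 without the filter and 644 of 17476 with DESeq2. They numbered 1137 of 17818 with replicates 4 and 5 only, 1282 of 17490 with the split as a term, and 639 to 966 with a library left out. Over all genes, edgeR called 7 at an adjusted p-value under 0.05, 10 without the filter, 3 to 6 with a library left out, 2 with replicates 1 to 3 only, 3 with replicates 4 and 5 only and 11 with the split as a term, and DESeq2 called 19. Without the 2 libraries farthest from the median, r was 0.59 for *Piezo1* with endothelial, -0.50 for *Piezo2* with pan-neuronal and 0.48 for *Asic2* with spinal cord genes. Among replicates 1 to 3, r was 0.86 (p = 0.0278, exact permutation) for *Piezo2* and 0.92 (p = 0.0556, exact permutation) for *Tmem63a* with glial genes.

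Same-numbered libraries correlated by 0.329, 0.0404, 0.320, 0.354 and 0.390 in their deviations from the group means, and control replicates 2 and 4 correlated best with another number. Not every pair passed 0.1, so the numbers were not taken as pairs, although replicates 4 and 5 of both groups correlated with each other by 0.201 to 0.390. With the replicate number as a block, 0 members had an adjusted p-value under 0.05, the lowest being 0.739 for *Asic2* (log2 fold change -0.071, edgeR), and 1241 genes had a p-value under 0.05 in place of 787.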
